A study of Rattus norvegicus with 12 samples.

Results

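The G2 and mitosis genes described here are 49 genes that dividing cells transcribe late in the cell cycle, given as a list of symbols with no threshold on their values, though earlier results of these data were known when the list was made. Of the 49 symbols, 47 had a row among the 30562 genes of the count table, whereas Cks2 and Nek2 had no row under those symbols. They were read in bulk RNA sequencing of cultured rat oligodendrocyte precursor cells (OPCs), the cells that make oligodendrocytes. The OPCs came from the cortices of newborn wild-type Sprague-Dawley rats (postnatal day 1 or 2, as the study's methods state), with no transgene or deletion in either group, and both groups grew in medium with the mitogens FGF-2 and PDGF-AA. The 6 mild-hypo-OPC libraries came from cells kept at 5% FiO2, for 6 hours by the sample labels but for 6 days by the study's methods, and the 6 standard OPC libraries came from cells kept in room air. Nothing in the labels says whether the 6 libraries of a group came from separate cultures, and a figure legend of the study gives 3 per group, so the p-values measure the spread between these libraries, which may be technical.

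A cell leaves G2 when cyclin B, bound to the kinase CDK1, is activated. Kinesins and other microtubule proteins then build the spindle, kinetochores tie it to the centromeres, and condensins and topoisomerase II shape the chromosomes. The anaphase-promoting complex, a ubiquitin ligase, ends mitosis by marking cyclin B and other proteins for destruction. OPCs are the main dividing cells of the postnatal and adult brain, and Mki67 and Top2a transcripts are in common use as marks of those that cycle. Many of these genes share promoter elements. The CHR, TTTGAA, is bound by complexes built on MuvB that repress the genes in resting cells and, with B-Myb, activate them in G2. The CCAAT box is bound by NF-Y.

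Promoters were read from RefSeq's GRCr8 rat assembly as 300 bases per gene, from 250 before to 50 after the annotated start, and 45 of the 49 members were found there by symbol. TTTGAA, searched on both strands, stood in 31 of the 45 (68.9%), against 18.1% of all 27457 promoters of this length and 10.5% of the 7076 promoters whose genes were tested here. CCAAT, also on both strands, stood in 36 (80.0%), against 37.7% of all promoters and 38.7% of those of tested genes. Both were in the window of 27 members (60.0%), against 4.5% of tested genes. A match is a description of the letters and not evidence of binding.

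The 120 bases before the start are shown for the 7 members that passed the test between the groups (Rangap1, Top2a, Kif11, Dlgap5, Gtse1, Cks1b and Birc5) and for Cdk1, Ccnb1 and Mki67, which did not, so that the promoters of genes with unlike values can be read side by side. They are written 5′ to 3′ on the gene's own strand, with capitals where a CHR or a CCAAT box is found on either strand. The stretches are chr20:19265173-19265292 on the plus strand for Cdk1, chr2:33655226-33655345 on the minus strand for Ccnb1 and chr1:199952594-199952713 on the minus strand for Mki67. They are chr7:115130565-115130684 on the minus strand for Rangap1, chr10:84473094-84473213 on the minus strand for Top2a, chr1:244536747-244536866 on the plus strand for Kif11, chr15:23144177-23144296 on the minus strand for Dlgap5 and chr7:118830053-118830172 on the plus strand for Gtse1. They are chr2:177135334-177135453 on the minus strand for Cks1b and chr10:103572026-103572145 on the plus strand for Birc5.
Cdk1: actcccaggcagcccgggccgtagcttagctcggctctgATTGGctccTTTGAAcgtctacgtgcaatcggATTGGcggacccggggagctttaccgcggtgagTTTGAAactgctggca
Ccnb1: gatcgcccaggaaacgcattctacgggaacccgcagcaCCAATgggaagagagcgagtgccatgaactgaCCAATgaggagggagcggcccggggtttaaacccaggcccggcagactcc
Mki67: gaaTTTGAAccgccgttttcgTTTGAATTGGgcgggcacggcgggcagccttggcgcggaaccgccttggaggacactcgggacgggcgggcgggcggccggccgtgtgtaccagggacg
Rangap1: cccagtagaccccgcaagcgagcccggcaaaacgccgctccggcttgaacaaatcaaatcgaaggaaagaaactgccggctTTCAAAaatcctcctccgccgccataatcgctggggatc
Top2a: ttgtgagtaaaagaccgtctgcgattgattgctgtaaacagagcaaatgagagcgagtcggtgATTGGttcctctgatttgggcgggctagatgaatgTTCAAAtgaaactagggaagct
Kif11: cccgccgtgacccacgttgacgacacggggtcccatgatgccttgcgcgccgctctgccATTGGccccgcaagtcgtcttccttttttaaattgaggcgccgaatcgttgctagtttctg
Dlgap5: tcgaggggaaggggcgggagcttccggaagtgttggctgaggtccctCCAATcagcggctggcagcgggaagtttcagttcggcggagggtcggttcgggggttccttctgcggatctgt
Gtse1: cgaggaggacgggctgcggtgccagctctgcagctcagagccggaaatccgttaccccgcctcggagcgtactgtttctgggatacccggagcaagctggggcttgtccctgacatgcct
Cks1b: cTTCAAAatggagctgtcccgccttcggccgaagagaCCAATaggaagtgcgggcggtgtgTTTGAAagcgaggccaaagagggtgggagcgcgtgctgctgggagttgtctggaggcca
Birc5: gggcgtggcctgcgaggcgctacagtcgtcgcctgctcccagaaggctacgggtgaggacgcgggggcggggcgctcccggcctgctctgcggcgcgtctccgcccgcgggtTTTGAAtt

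Cdk1 and Ccnb1 each held 2 CCAAT boxes whose first bases lay 32 bases apart. This spacing was looked at after the stretches were read, so Cdk1 and Ccnb1 could not fail to show it. Boxes 31 to 33 bases apart stood in 8 of the 45 member promoters (17.8%), against 1.9% of tested genes. The 8 include Cdk1 and Ccnb1 themselves, beside Ccnb2, Tmpo, Anp32e, Ckap5, Hmmr and Nek2. The 2 members that fell, Cks1b and Birc5, both held TTTGAA in the 300 bases, as did 2 of the 5 that rose. In Mki67 a CHR and a CCAAT box read on the opposite strand overlapped by 1 base. Neither element was found in the stretch of Gtse1. CCAAT was most frequent between 100 and 50 bases before the start, where 37.78% of members held it in the farther 25 bases and 33.33% in the nearer 25, against 5.99% and 6.22% of all promoters. TTCGAA, a variant of the CHR, was in 3 member promoters (6.7%, against 2.0% of tested genes), and TTCCCGC, an E2F site, was also in 3 (6.7%, against 8.6%).

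**Figure D1:**
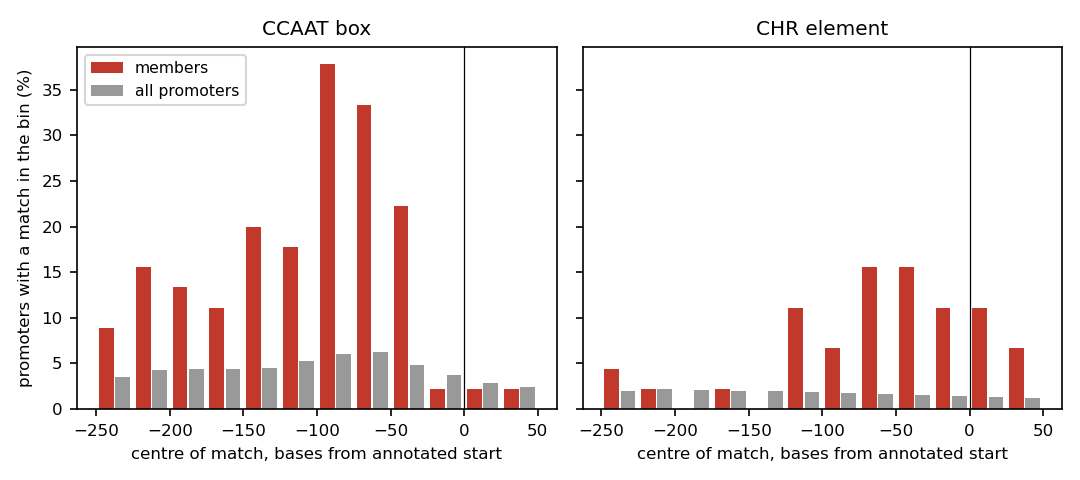
Share of promoters (%) with a CCAAT box or a CHR element centred in each 25-base bin, by bases from the annotated start, for the members in red and all promoters in gray. The CCAAT bars of the members are tallest between 100 and 50 bases before the start, at 37.78% and 33.33%.

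In the 12 libraries, most of the G2 and mitosis genes did not pass a test between mild-hypo-OPCs and standard OPCs. Of the 43 members that could be tested, 5 rose in mild-hypo-OPCs (Rangap1, Top2a, Kif11, Dlgap5 and Gtse1), 2 fell (Cks1b and Birc5) and 36 did not pass an adjusted p of 0.05 in edgeR's quasi-likelihood test. Among all 8938 genes tested, 7.00% rose and 17.0% fell, so that 5 of 43 higher (11.63%) and 2 of 43 lower (4.65%) are to be read against those shares. The log2 fold changes of the members ran from -0.51 to 0.57, with a median of 0.15 and 29 above 0, while the median of all tested genes was -0.003. At an unadjusted p under 0.05, 11 of the 43 members were higher and 3 lower, against 1200 and 2043 of all 8938 genes tested. Rangap1 and Top2a passed with any 1 of the 12 libraries left out, Dlgap5 in 8 of these 12 fits, Gtse1 in 6, Cks1b in 4, Kif11 in 3 and Birc5 in 2. The number higher was 2 without replicate 5 of either group, 3 without replicate 1 of either group or standard OPC replicate 6, and 8 without mild-hypo-OPC replicate 6. The number lower was 0 when mild-hypo-OPC replicates 1, 3, 4 or 5, or replicates 3, 5 or 6 of the standard OPCs, were left out (2 or 3 lower at an unadjusted p under 0.05). It was 1 when replicate 2 of either group, mild-hypo-OPC replicate 6 or replicate 4 of the standard OPCs was left out, and 3 when standard OPC replicate 1 was. Over these 12 fits, 4.91% to 9.22% of all genes tested were higher and 13.1% to 18.7% lower. The split also moved with the scaling. It was 10 higher and 0 lower with upper-quartile factors (2 lower at an unadjusted p under 0.05), 7 and 1 with TMM factors computed before the filter, 6 and 1 without ribosomal RNA rows, and 35 and 0 with library size alone, where the median of all genes was itself 0.43 and that of the members 0.58. Of all genes tested, 12.7%, 9.42%, 7.59% and 61.7% were higher in these settings, in that order. The shares lower were 14.0%, 15.5%, 15.1% and 4.53%. In bulk RNA, fewer dividing cells and less of a transcript per dividing cell cannot be told apart.

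Levels are given as CPM, the counts of a gene scaled to a common total over tested genes and by the TMM factors that edgeR uses to set libraries of unlike composition against each other. They compare a gene between libraries, not one gene with another, since they are not divided by length. A gene was tested where at least 1 library had more than 10 CPM by its own total count, before the TMM factors were applied. These factors were 1.076 to 1.233 in mild-hypo-OPC and 0.8088 to 0.9451 in standard OPC libraries. At the same scaled CPM, the limit was therefore met more easily in mild-hypo-OPC libraries. The 4 members under that limit were Cdc25c, a phosphatase that activates CDK1 (0 to 18 counts per library), the kinesins Kif20b (2 to 44) and Kif23 (2 to 54), and Psrc1, a microtubule-binding protein (2 to 23). Since a limit met in 1 library favours genes that are high in a group, the counts of called members describe those tested and not all 49. With no such limit, all 47 members with a row were tested, and 4 rose and 1 fell, against 4.22% and 8.72% of all genes then tested.

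Total counts ran from 4111669 to 9022324 in the mild-hypo-OPC libraries and from 1356079 to 2797513 in the standard OPC libraries, without overlap, so depth and group cannot be told apart. The share of ribosomal RNA was 17.4% to 25.25% in the deeper mild-hypo-OPC libraries, against 23.87% to 38.42%. The lowest count of a tested member was 31 in a mild-hypo-OPC library and 5 in a standard OPC library, and 13 tested members had under 10 counts in at least 1 standard OPC library. With log2 of the total count added as a covariate, no member passed the test, 3 were lower and none was higher at an unadjusted p under 0.05, and 43 of all genes fell. All 7 markers listed for OPCs passed the limit, and their summed level was 3726 to 4326 CPM against 3083 to 3827 CPM in standard OPCs. Gpr17, the highest of the 7 by CPM (mean 1323.7 against 967.0), was higher in mild-hypo-OPCs with no overlap between groups. The other 6 did not pass the test, with log2 fold changes from -0.14 (Ptprz1) to 0.23 (Sox10). Of 11 markers of microglia, another dividing cell type of glial cultures, 6 were tested. The 11 had a summed level of 62.59 to 87.75 CPM against 41.41 to 67.31. Csf1r and C1qb were higher (33.33% of the 6, against 7.00% of all tested genes) and Tyrobp was lower (16.67%, against 17.0%). No mild-hypo-OPC library met the limit of 10 CPM for Tyrobp, so only its standard OPC libraries let it be tested. Astrocyte markers summed to 637 to 751.1 CPM against 606.2 to 695.4, and neuronal markers to 240.1 to 264.2 against 175.9 to 221.3. Aqp4, an astrocyte marker, and Tubb3, a neuronal one, were higher with no overlap between groups (log2 fold changes of 0.79 and 0.72, adjusted p = 0.0003 and 0.0002). All 6 libraries were above all 6 for 2.94% of the genes tested. The other 3 tested astrocyte markers (Gfap 0.12, Aldoc -0.12 and Slc1a2 -0.27) and the other 4 neuronal ones (0.07 to 0.47) did not pass. Mesenchymal markers (0.66 to 3.02 against 0 to 1.67 CPM) and endothelial markers (0.20 to 1.16 against 0 to 0.76 CPM) were near 0, with 1 and 2 of them at 0 in every library. The part of these cells and of depth in the results was not tested beyond these values.

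**Figure D2:**
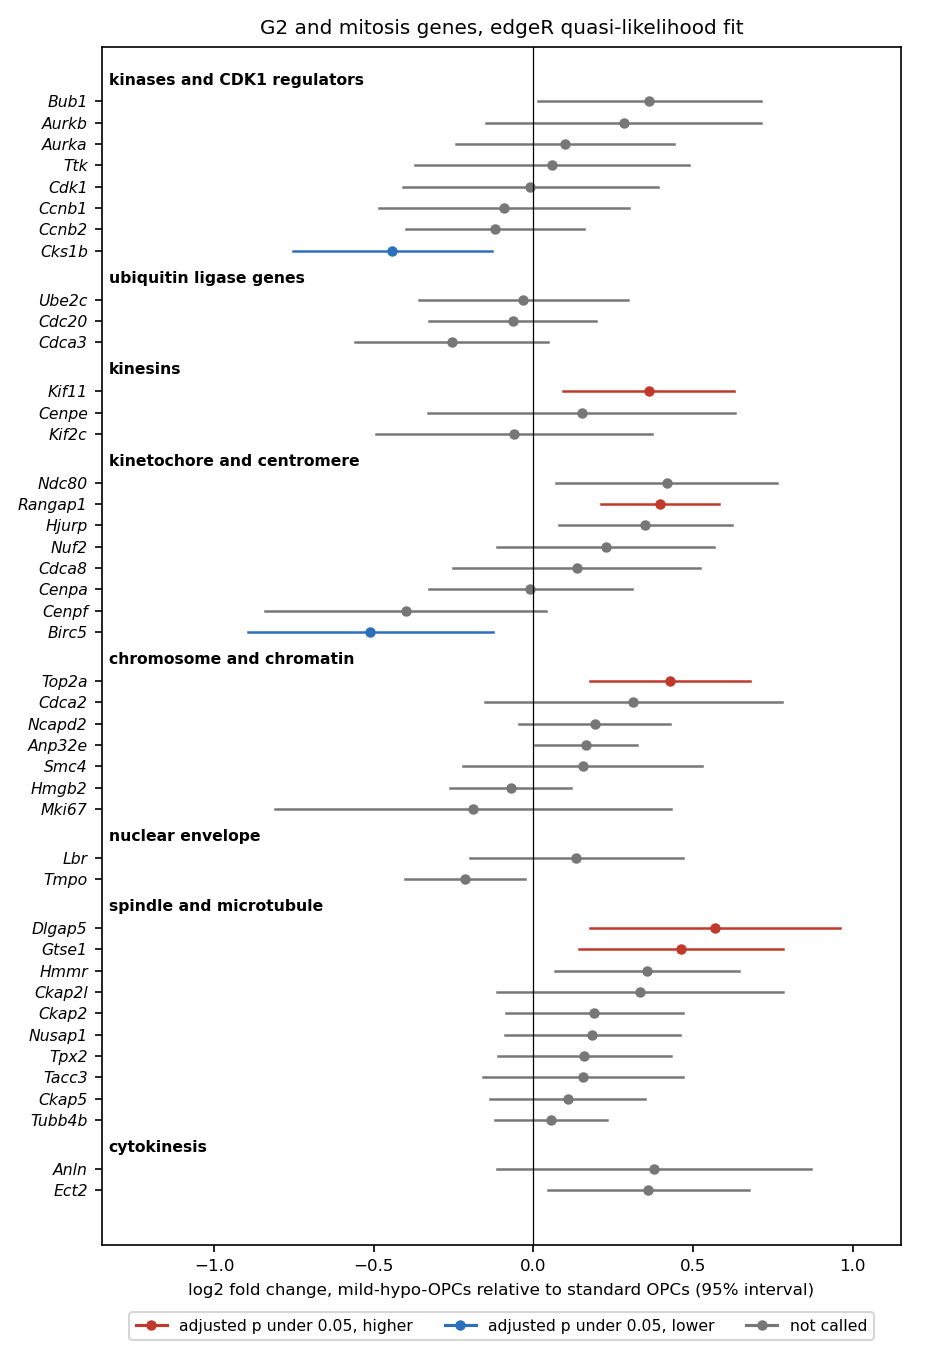
Log2 fold change of mild-hypo-OPCs relative to standard OPCs (horizontal axis) for the 43 tested members, grouped by role, with points for the estimate and lines for its 95% interval. The 5 members called higher are in red, the 2 called lower in blue and the 36 not called in gray, and all 10 spindle and microtubule genes lie to the right of 0.

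Among the kinases and CDK1 regulators, none of the 8 tested members rose and 1 fell (12.5%, against 17.0% of all tested genes). Their median log2 fold change was 0.02. Cks1b (ENSRNOG00000042561_Cks1b), the small subunit that binds cyclin-dependent kinases and helps them reach their substrates, was at 20.8, 27.8 and 33 CPM in mild-hypo-OPCs (lowest, median, highest of 6) and at 26.7, 34.3 and 51.9 CPM in standard OPCs. Its level fell by 0.44 on the log2 scale (SE 0.15, adjusted p = 0.0359), although the 2 groups overlapped. Relative to library size alone, without TMM factors, its log2 fold change was -0.00 (adjusted p = 0.993). Its close copy Cks2 has no row under that symbol, so how reads shared by the 2 were assigned is not known.

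Cdk1, the kinase that drives entry into mitosis, was at 15.4, 17.4 and 20.2 CPM in mild-hypo-OPCs and at 8.41, 21.0 and 24.0 CPM in standard OPCs. The mild-hypo-OPC libraries lay inside the range of the standard ones, and the log2 fold change was -0.01 (95% interval -0.41 to 0.39, adjusted p = 0.979). Ccnb1, cyclin B1, was at 17.3, 20.9 and 25.7 CPM against 13.0, 23.1 and 35.1 CPM, again inside the range of the standard OPCs, with a log2 fold change of -0.09 (-0.48 to 0.30, adjusted p = 0.759). Cyclin B2, Ccnb2, had a log2 fold change of -0.12 (-0.40 to 0.16).

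Aurkb, the kinase of the chromosomal passenger complex that corrects faulty attachments of chromosomes, was at 8.46, 10.2 and 13.5 CPM in mild-hypo-OPCs and at 4.60, 8.92 and 13.0 CPM in standard OPCs. The groups overlapped over most of their range, and the log2 fold change was 0.28 (-0.15 to 0.71, adjusted p = 0.347). The remaining 3 tested kinases were Aurka, which matures the spindle poles, and the spindle checkpoint kinases Bub1 and Ttk, with log2 fold changes of 0.10, 0.36 and 0.06. Bub1 had an unadjusted p of 0.0429 and an adjusted p of 0.123.

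None of the 3 ubiquitin ligase genes passed the test, and all 3 estimates were below 0. With upper-quartile factors, however, those of Cdc20 and Ube2c were 0.01 and 0.04. With library size alone Cdc20 (0.37) and Ube2c (0.40) passed as higher, as did 61.7% of all genes tested. Cdc20, which activates the anaphase-promoting complex, was at 24.3, 28.6 and 29.9 CPM in mild-hypo-OPCs and at 21.1, 31.4 and 36.8 CPM in standard OPCs. Its log2 fold change was -0.07 (-0.33 to 0.20, adjusted p = 0.746), with the mild-hypo-OPC values inside the range of the others. Cdca3, an F-box-like protein that helps to destroy the kinase WEE1, had the largest difference of the 3, at 20.3, 23.6 and 32.3 CPM against 22.9, 29.3 and 40.6 CPM and a log2 fold change of -0.26 (-0.56 to 0.05, adjusted p = 0.214). Ube2c, the ubiquitin-conjugating enzyme of the complex, had a log2 fold change of -0.03 (-0.36 to 0.29).

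Of the 5 kinesins, 3 were tested, and Kif11 rose (33.33% of the 3, against 7.00% of all tested genes). Kif11 (ENSRNOG00000056069_Kif11), the motor that pushes the spindle poles apart, was at 16.2, 20.2 and 22.3 CPM in mild-hypo-OPCs and at 12.7, 15.3 and 18.9 CPM in standard OPCs. Only the lowest mild-hypo-OPC library, replicate 6, and the 2 highest standard OPC libraries overlapped. The log2 fold change was 0.36 (SE 0.13, adjusted p = 0.0466), close to the threshold, and the call was lost in the other tests, with an adjusted p of 0.0758 from limma-voom and of 0.0541 from DESeq2. Cenpe, which carries chromosomes to the spindle's middle, and Kif2c, which takes microtubules apart at centromeres, had log2 fold changes of 0.15 (-0.33 to 0.63) and -0.06 (-0.49 to 0.37).

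The 8 kinetochore and centromere genes were all tested, and 1 rose and 1 fell (12.5% each, against 7.00% and 17.0% of all tested genes). Rangap1 (ENSRNOG00000031789_Rangap1), the GTPase-activating protein of Ran that sits at nuclear pores in interphase and at kinetochores in mitosis, was at 75.7, 81.3 and 87.8 CPM in mild-hypo-OPCs and at 51.2, 60.9 and 72.6 CPM in standard OPCs. All 6 mild-hypo-OPC libraries were above all 6 standard OPC libraries, which was so for 2.94% of the genes tested, and it was the only member whose groups did not overlap. No member had all 6 below, which was so for 5.40% of all genes tested. The mean was 81.2 ± 4.10 CPM against 61.3 ± 7.69 CPM (SD, n = 6 each), and the log2 fold change was 0.40 (SE 0.09, adjusted p = 0.0030).

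Birc5 (ENSRNOG00000050819_Birc5), survivin, which brings the chromosomal passenger complex to centromeres, was at 9.81, 14.8 and 17.2 CPM in mild-hypo-OPCs and at 13.4, 19.2 and 29.8 CPM in standard OPCs. The groups overlapped, and its level fell by 0.51 on the log2 scale (SE 0.18, adjusted p = 0.0487), at the edge of the threshold. With limma-voom Birc5 was not called. Cdca8, borealin, and Aurkb belong to the same complex and had log2 fold changes above 0, of 0.13 (-0.25 to 0.52) and 0.28, neither of which passed the test. The difference between Birc5 and its partners was not tested.

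Of the other kinetochore and centromere genes, Cenpf, a large protein of the outer kinetochore, had a log2 fold change of -0.40 (-0.84 to 0.04, adjusted p = 0.180) with 8.85, 15.5 and 19.7 CPM against 9.997, 19.8 and 29.5 CPM. Ndc80 and Nuf2, partners in the complex that holds microtubules, had log2 fold changes of 0.42 (adjusted p = 0.0724) and 0.23 (adjusted p = 0.354). Hjurp, which loads the centromeric histone Cenpa, was at 0.35 (adjusted p = 0.0554) and Cenpa itself at -0.01 (-0.33 to 0.31).

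**Figure D3:**
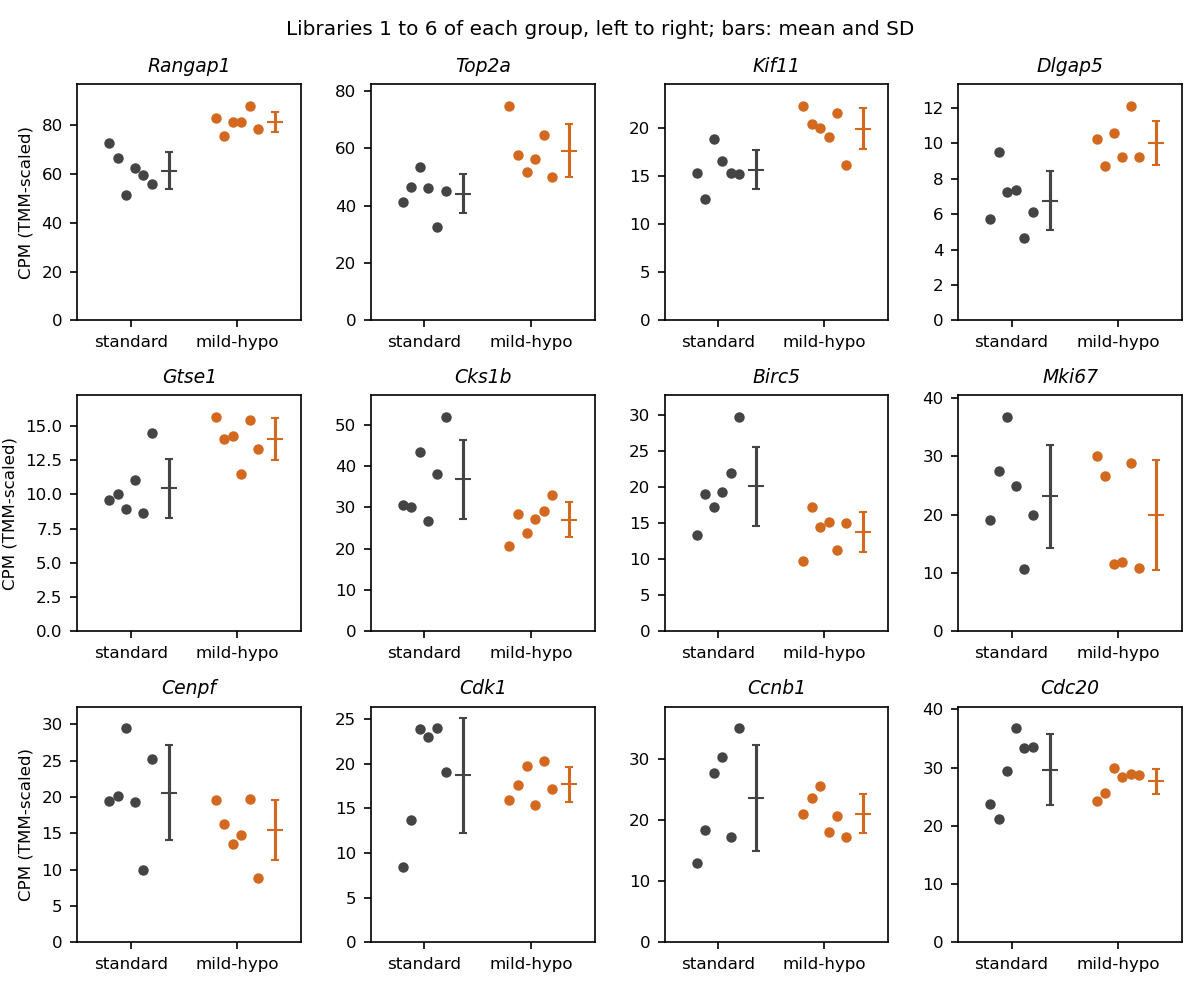
TMM-scaled CPM (vertical axes from 0) of 12 members in each library, with standard OPCs in gray and mild-hypo-OPCs in orange, libraries 1 to 6 from left to right, and bars for the mean and SD of 6. The groups of Rangap1 do not overlap, while the mild-hypo-OPC points of Cdk1 and Ccnb1 fall inside the range of the standard OPCs and those of Mki67 span 10.9 to 29.9 CPM.

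Among the 7 chromosome and chromatin genes, 1 rose (14.29%, against 7.00% of all tested genes) and none fell (17.0% of all). Top2a (ENSRNOG00000053047_Top2a), which untangles sister chromosomes, was at 49.96, 56.8 and 74.7 CPM in mild-hypo-OPCs and at 32.7, 45.5 and 53.4 CPM in standard OPCs. The ranges overlapped only where standard OPC replicate 3 exceeded the lowest 2 mild-hypo-OPC libraries. The mean was 59.1 ± 9.21 CPM against 44.1 ± 6.86 CPM (SD, n = 6 each), with a log2 fold change of 0.43 (SE 0.12, adjusted p = 0.0142).

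Mki67, which coats mitotic chromosomes and marks cycling cells, did not pass the test, with a log2 fold change of -0.19 (-0.81 to 0.43, adjusted p = 0.684). In mild-hypo-OPCs it was at 29.9, 26.6 and 28.9 CPM in replicates 1, 2 and 5 and at 11.6, 11.9 and 10.9 CPM in replicates 3, 4 and 6. In standard OPCs it was at 10.7, 22.3 and 36.7 CPM (lowest, median, highest). The 2 marks of cycling cells thus had estimates of opposite sign, but the interval of Mki67 was the widest of the members and reached 0.43, the estimate of Top2a. The coefficient of variation (CV) of Mki67 in mild-hypo-OPCs was 47.1%, against 8.66% from counting alone.

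Anp32e, a chaperone that removes the histone H2A.Z, was the highest of the 7 by CPM, at 145.7, 153.6 and 165.1 CPM against 128.9, 134.3 and 161.1 CPM. Its log2 fold change was 0.17 (0.01 to 0.32, adjusted p = 0.123). The condensin subunits Smc4 and Ncapd2 had log2 fold changes of 0.15 and 0.19, Cdca2, which recruits a phosphatase to chromatin at the end of mitosis, 0.31, and the DNA-bending protein Hmgb2 -0.07 (-0.26 to 0.12).

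Neither nuclear envelope gene passed the test. Tmpo, which encodes the lamina-associated LAP2 proteins, was at 223.6, 245.4 and 256.7 CPM in mild-hypo-OPCs and at 232.8, 274.3 and 341.9 CPM in standard OPCs. Its log2 fold change was -0.21 (-0.40 to -0.03), with an unadjusted p of 0.0264 and an adjusted p of 0.0874. Lbr, the lamin B receptor, was at 0.13 (-0.20 to 0.47).

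All 10 tested spindle and microtubule genes had estimates above 0, with a median of 0.19, and 2 rose (20%, against 7.00% of all tested genes). The signs were the same under each scaling of the libraries that was tried. Dlgap5 (ENSRNOG00000010721_Dlgap5), which steadies the microtubules that end at kinetochores, was at 8.70, 9.72 and 12.1 CPM in mild-hypo-OPCs and at 4.67, 6.67 and 9.51 CPM in standard OPCs. It had the largest log2 fold change of the members, 0.57 (SE 0.19, adjusted p = 0.0328), but rested on 7 to 18 counts per standard OPC library. No standard OPC library met the limit of 10 CPM for Dlgap5, so only its mild-hypo-OPC libraries let it be tested. With no such limit it was called too, but not with limma-voom or with libraries thinned to the smallest total. Gtse1 (ENSRNOG00000016148_Gtse1), a microtubule-binding protein that also restrains p53 in G2, was at 11.5, 14.2 and 15.6 CPM against 8.66, 9.80 and 14.5 CPM. Its log2 fold change was 0.46 (SE 0.15, adjusted p = 0.0330), and standard OPC replicate 6 alone reached into the mild-hypo-OPC range.

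Tubb4b, a beta-tubulin that cells also use outside mitosis and that shares much sequence with other tubulin genes, was the highest member by CPM, at 314.3, 370.5 and 405.6 CPM against 323.0, 346.5 and 397.2 CPM. The groups overlapped almost wholly, and the log2 fold change was 0.06 (-0.12 to 0.23, adjusted p = 0.674). The other 7 (Hmmr, Ckap2l, Ckap2, Nusap1, Tpx2, Tacc3 and Ckap5) had log2 fold changes of 0.11 to 0.36, of which Hmmr, a spindle pole protein, came nearest to the threshold (adjusted p = 0.0661).

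Neither cytokinesis gene passed the test. Anln, anillin, a scaffold of the contractile ring, was at 11.9, 14.1 and 16.7 CPM in mild-hypo-OPCs and at 3.33, 10.5 and 17.4 CPM in standard OPCs. Its log2 fold change was 0.38 (-0.11 to 0.87, adjusted p = 0.260), and its CV in standard OPCs, 56.4%, was the highest of any member in either group. Ect2, which switches on RhoA to form that ring, was at 12.1, 13.8 and 15.8 CPM against 7.33, 11.2 and 12.9 CPM, with a log2 fold change of 0.36 (0.05 to 0.67, adjusted p = 0.0893).

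For the 36 members that did not pass, the 95% interval of each lay within a 2-fold change either way, and for 24 within a 1.5-fold change. Differences inside those intervals were not excluded by these libraries, and some of the intervals did not include 0, such as that of Hjurp (0.08 to 0.62). The summed level of the 43 tested members was 1595.3 to 1677 CPM in mild-hypo-OPCs (median 1642) and 1454.8 to 1690.9 CPM in standard OPCs (median 1599.55), so the groups overlapped. Tubb4b, Tmpo and Anp32e made up 47.7% of that sum. Without them the other 40 summed to 797.4 to 936.8 CPM (median 874.9) against 752.1 to 898.1 CPM (median 822.5), again with overlap.

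Members varied more between standard OPC libraries than between mild-hypo-OPC libraries, with a median CV of 21.6% (8.3% to 56.4%) against 11.2% (4.4% to 47.1%). Counting alone would give a median of 17.7% and 9.3% at the depths of the 2 groups. The CV was over 2 times the counting value for 9 members in mild-hypo-OPCs (Cks1b, Cdca3, Cenpf, Top2a, Smc4, Mki67, Tmpo, Ckap5 and Tubb4b) and for 7 in standard OPCs (Ccnb1, Cks1b, Mki67, Tmpo, Ckap5, Tubb4b and Anln). The highest library of a member was most often replicate 5 (11 of 43) or replicate 1 (10) among mild-hypo-OPCs and replicate 3 (13) or replicate 6 (10) among standard OPCs.

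A further 120 genes of the same processes were listed, 116 had a row and 74 were tested. Of these, 4 rose and 8 fell (5.41% and 10.81%, both below the 7.00% and 17.0% of all tested genes), with a median log2 fold change of 0.13. Of the 12 regulators tested, Cdc25b, a phosphatase that activates CDK1, rose with all 6 mild-hypo-OPC libraries above all standard ones (13.4 ± 1.96 against 6.71 ± 1.39 CPM, SD, n = 6 each, log2 fold change 0.98, adjusted p = 0.0006). No standard OPC library met the limit of 10 CPM for Cdc25b, so only its mild-hypo-OPC libraries let it be tested. Mybl2, which encodes the B-Myb that acts with MuvB at the CHR, rose too, with a log2 fold change of 0.82 (adjusted p = 0.0353). Ensa, an inhibitor of the phosphatase that opposes CDK1, fell by 0.65 on the log2 scale (adjusted p = 0.0028). Of the 12 regulators, 2 thus rose (16.67%) and 1 fell (8.33%), against 7.00% and 17.0% of all tested genes.

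Of the 19 tested genes of the anaphase-promoting complex and cohesin, none rose and 4 fell (21.05%, near the 17.0% of all tested genes). With library size alone none of the 4 passed, and Ube2s (0.051) and Anapc5 (0.095) were above 0. They were Anapc15, by 0.70 on the log2 scale, Anapc10, by 0.48, Ube2s, by 0.39, and Anapc5, by 0.34, all parts or the chain-extending enzyme of the anaphase-promoting complex. Of the 14 checkpoint and kinetochore genes tested, Bub3, a spindle checkpoint protein, fell by 0.42 on the log2 scale (adjusted p = 0.0052). It was the only one called (7.14%, against 17.0% of all tested genes that fell). Of the 20 genes listed under kinesins, spindle and cytokinesis, none fell and 2 rose (10%, against 7.00% of all tested genes). The kinesin Kif18b had a log2 fold change of 0.47. The other was Ccnf, listed there although it is an F-box protein that marks cell-cycle proteins for destruction. Its log2 fold change was 0.61, with no overlap between groups. The 9 condensin and chromatin genes held 2 that fell, Hmgn2 and Cbx5 (22.22%, near the 17.0% of all tested genes), and none that rose.

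Genes of DNA replication, which are transcribed earlier in the cycle, gave a median log2 fold change of 0.26 over the 28 tested of 43 listed. Of these, 7 rose (Mcm2, Mcm4, Mcm5, Mcm6, Rrm2, Uhrf1 and Atad2; 25% against 7.00% of all tested genes) and none fell, against 17.0% of all. Atad2 was tested only through its mild-hypo-OPC libraries, since no standard OPC library met the limit of 10 CPM. The difference between these lists was not tested.

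**Figure D4:**
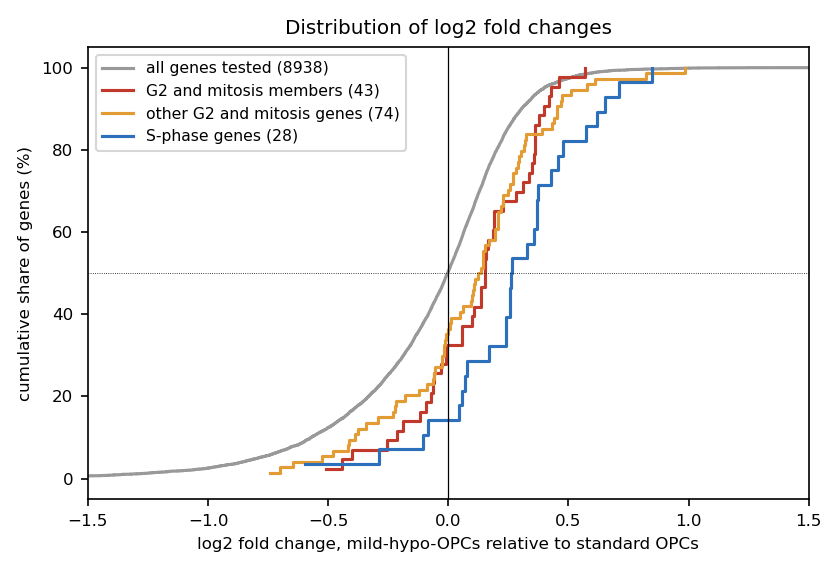
Cumulative share of genes (%) by log2 fold change of mild-hypo-OPCs relative to standard OPCs for all 8938 tested genes, the 43 members, the 74 other G2 and mitosis genes and the 28 S-phase genes. The curves cross the middle of the share axis at -0.003, 0.15, 0.13 and 0.26.

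Fold changes in these libraries moved with the length of a gene on the genome. When genes with a RefSeq span were divided into 4 classes of nearly equal size, the median log2 fold change of all tested genes was -0.22 in the shortest class (up to 10653 bp), -0.02 in the second, 0.07 in the third and 0.06 in the longest (from 61231 bp), and 35.1%, 16.5%, 7.7% and 5.8% of them fell. The members' medians, from the shortest class to the longest, were -0.07 for 8 members, 0.13 for 15, 0.31 for 15 and 0.36 for 5. Cks1b was in the shortest class and Birc5 and Gtse1 in the second. Rangap1, Top2a and Dlgap5 were in the third and Kif11 in the longest. The part of gene length in the members' values was not tested.

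**Figure D5:**
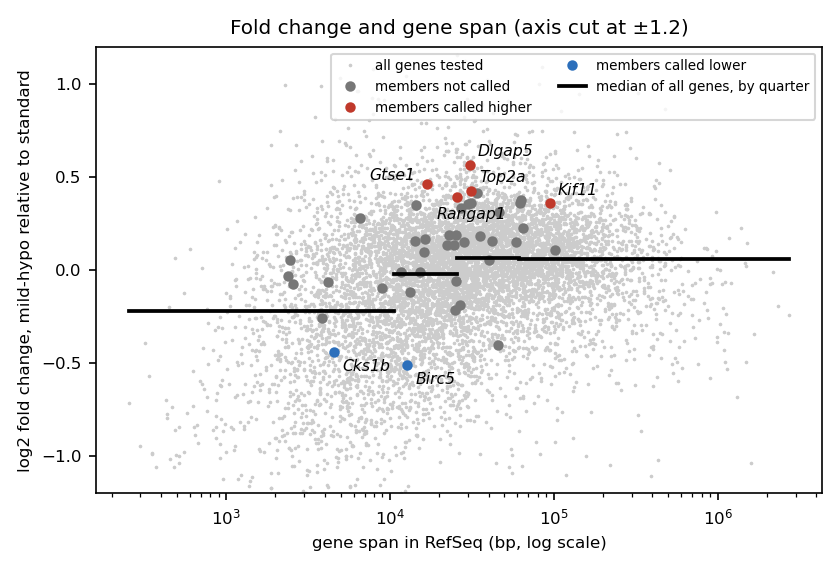
Log2 fold change of mild-hypo-OPCs relative to standard OPCs against gene span in RefSeq (bp, log axis) for all tested genes (small gray points) and the members (large points, red if higher, blue if lower). Black lines are the median of all genes in each of the 4 classes of span, from -0.22 in the shortest to 0.06 in the longest.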

How the data were processed

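RNA was isolated from 6 mild-hypo-OPC and 6 standard OPC samples, and strand-specific libraries were made from 200 ng of total RNA. Per the submitters' processing notes and the study's methods, the authors trimmed reads with Trimmomatic 0.36, checked them with FastQC 0.11.9, aligned them to the mRatBN7.2 rat genome with STAR 2.7.9a and quantified genes with RSEM 1.3.3. The deposited values were whole-number counts per Ensembl gene, not normalized, for 30562 genes. How RSEM's estimates became whole numbers is not given in the sources used here.

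Groups came from the sample labels. The 49 members, their groups and the other gene lists were chosen with earlier results of these data known. Members were matched by symbol. The filter asked for more than 10 CPM, without TMM factors, in at least 1 library. Counts were then scaled by TMM factors. The groups were compared with edgeR's quasi-likelihood test (edgeR 4.0.16, R 4.3.3), two-sided. P-values had Benjamini-Hochberg adjustment over all 8938 genes, with a threshold of 0.05. Errors of log2 fold changes are standard errors from the fit, intervals are 95%, and CPM are given with the SD of 6 libraries. Counting CVs cover counting error only. The tests were checked on simulated data. limma-voom (limma 3.58.1), the study's own test, and DESeq2 1.42.0 were alternatives, with other scalings, filters, subsets of libraries, thinned counts and a depth covariate. The 2 settings with TMM factors before the filter and without the 78 ribosomal RNA rows were chosen after seeing the data.

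Named with full values were all called members, Mki67, Top2a, Cdk1, Ccnb1, Aurkb and, in each group, the tested member with the highest mean CPM and that with the largest absolute log2 fold change. Of the further genes, the 8 called with the lowest p-values were named. The remaining members' estimates and Mybl2, Kif18b, Hmgn2 and Cbx5 were added after their values were seen. Within each group, every pair of libraries differed by more than counting noise (chi-square per degree of freedom of 3.972 to 27.24 among mild-hypo-OPCs and 4.144 to 22.32 among standard OPCs), so none was counted as a repeat. Sequences and gene spans came from RefSeq's GRCr8 assembly, and no coordinates were converted from the build of the counts.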

Additional observations from a re-analysis of the deposited data

Results flagged for a closer look

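In 5 of the 86 groups of 6 CPM values checked (43 members in 2 groups), 1 library stood apart from the other 5 by Dixon's 95% criterion, and chance flags about 1 in 20 such groups. Mild-hypo-OPC replicate 2 was the highest of its group for Ube2c, at 23.8 CPM with the nearest library at 19.4 and the farthest at 17.0, and for Cdca3, at 32.3 CPM with the nearest at 24.7 and the farthest at 20.3. Standard OPC replicate 5 was the highest for Cdca8, at 17.3 CPM with the nearest at 10.6 and the farthest at 6.87. Standard OPC replicate 6 was the highest for Ncapd2, at 43.5 CPM with the nearest at 32.5 and the farthest at 26.7, and the lowest for Tpx2, at 13.7 CPM with the nearest at 23.3 and the farthest at 26.7. None of these 5 members passed the test between the groups.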

How the results depend on the processing

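Against 5 members higher and 2 lower, limma-voom gave 3 and 1, upper-quartile factors 10 and 0, library size alone 35 and 0, no filter 4 and 1, at least 10 counts in every library 5 and 1, replicates 1 to 3 alone 0 and 0 (7 and 2 at an unadjusted p under 0.05), replicates 4 to 6 alone 3 and 2, libraries thinned to the smallest total 2 and 0, log2 total count as a covariate 0 and 0, TMM factors before the filter 7 and 1, and no ribosomal RNA rows 6 and 1. Of all genes tested, limma-voom called 6.37% higher and 16.0% lower, upper-quartile factors 12.7% and 14.0%, and library size alone 61.7% and 4.53%. Without a filter the shares were 4.22% and 8.72%, and with at least 10 counts 8.43% and 18.5%. Replicates 1 to 3 alone gave 0.620% and 4.01%, and replicates 4 to 6 alone 6.48% and 15.7%. Thinned libraries gave 4.27% and 13.1% and the covariate 0% and 0.481%. TMM factors before the filter gave 9.42% and 15.5%, and no ribosomal RNA rows 7.59% and 15.1%. Leaving out 1 library gave 2 to 8 members higher and 0 to 3 lower, against 4.91% to 9.22% and 13.1% to 18.7% of all genes tested. DESeq2 gave 5 and 2 members, against 8.89% and 17.0% of all genes tested. With the replicate number as a block the counts were 2 higher and 2 lower, against 6.40% and 16.5% of all genes tested. However, the labels do not say that a number marks a shared culture or day. Correlations of same-numbered libraries were above 0.1 for 2 of 6, and only mild-hypo-OPC replicate 1 correlated best with its own number.

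Against 4 higher and 8 lower among the other G2 and mitosis genes, upper-quartile factors gave 10 higher, TMM factors before the filter 8, and library size alone 53 and 0. DESeq2 gave 6 higher and 9 lower, and leaving out ribosomal RNA rows 6 and 8. Replicates 1 to 3 alone gave 0 and 0, replicates 4 to 6 alone 2 higher, thinned libraries 2 and 4, and the covariate 0 and 0. Leaving out 1 library gave 3 to 7 higher and 5 to 10 lower, with 5 lower without mild-hypo-OPC replicate 5 and 7 higher without mild-hypo-OPC replicate 6. The shares of all genes in these settings are those given in the paragraph above.

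With library size alone the sign turned for Cdk1 (0.42), Ccnb2 (0.31), Cdc20 (0.37), Ube2c (0.40), Cenpa (0.42) and Hmgb2 (0.36), which then passed as higher, and for Bub3 (0.018), Ube2s (0.051) and Anapc5 (0.095). The sign turned without a call for Ccnb1, Cdca3, Kif2c, Cenpf, Mki67 and Tmpo, so that 41 of the 43 members were above 0. Among genes called in the main fit, the sign turned with the depth covariate for Cks1b (0.13), Birc5 (0.44), Top2a (-0.014), Ensa (0.12), Ube2s (0.074), Anapc15 (0.017) and Anapc5 (0.054), none of which passed. Total count separates the groups, so this covariate and the group cannot be told apart. For the other alternatives the cause was not tested. Rangap1 and Top2a were called in 24 of 26 alternatives, all but replicates 1 to 3 alone and the covariate. Dlgap5 was called in 15 of 25, and of 26, Gtse1 in 15, Cks1b in 12, Kif11 in 8 and Birc5 in 6. Over the 7 called members and 8 called genes of the other G2 and mitosis list, 282 of 388 values kept their direction and call, 96 their direction alone and 10 neither. Of 924 values of uncalled members, 50 passed, 30 of them with library size alone, and another 86 changed sign without passing. Estimates near 0 changed sign most: Cdk1 kept its sign in 8 of 26 alternatives, Cenpa in 9 and Ube2c in 11. Standard OPC depth limits the members with few counts.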
